A study of Mus musculus with 16 samples.

Results

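Ceacam1, Ceacam2, Ceacam10, Ceacam18 and Ceacam20 are 5 of the 15 Ceacam genes in the mouse annotation used here, and 5 of the 45513 genes counted in sorted colonic epithelium. They were taken by gene symbol, and all 5 had enough counts to be tested between tdTom+ and tdTom- cells. Of the 5, only Ceacam10 was higher in tdTom+ cells, and the other 4 were lower, in a comparison where 25.5% of the 15841 genes tested were higher and 25.5% were lower in tdTom+ cells (edgeR, adjusted p under 0.01). The differences ran from 1.45-fold for Ceacam1 to 25.07-fold for Ceacam20.

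Carcinoembryonic antigen-related cell adhesion molecules are glycoproteins of the immunoglobulin superfamily that line the surface of epithelial and blood cells and bind one another or microbes. CEACAM1 crosses the membrane and carries inhibitory tyrosine motifs in its longer cytoplasmic tail, to which the phosphatases SHP-1 and SHP-2 (encoded by Ptpn6 and Ptpn11) bind. CEACAM20 lies on the microvilli of intestinal epithelial cells, where its phosphorylation by Src kinases, its binding of SYK and its dephosphorylation by the receptor phosphatase SAP-1 (encoded by Ptprh) have been described. In the colon, absorptive cells carry the dense brush border of microvilli, and goblet cells, whose fate depends on the transcription factor ATOH1, make mucus.

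RNA was sequenced from EpCAM+ live cells of the colon of 8 mice, each giving a tdTom+ and a tdTom- library, so that every comparison could be followed within a mouse. All mice were C57BL/6 animals of either sex, aged 8 to 16 weeks, homozygous for Atoh1(WT)CreERT2, in which an inducible Cre follows the Atoh1 coding sequence, and heterozygous for Rosa26tdTom, so the tdTom- cells come from the same genotype and the same treatment. Each mouse received tamoxifen at 1 mg a day on 3 days in a row. The red label marks cells that expressed Atoh1 while tamoxifen was active, and the progeny of such cells. The tdTom- cells are a mixture of all other EpCAM+ cells of crypt-enriched tissue. Whether they held Atoh1+ cells that stayed unlabelled was not tested.

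Levels are given in CPM, the counts of a gene scaled to 1000000 counts of its library, whose size was first adjusted by TMM normalization. Total counts ran from 16482530 to 24218367 in the tdTom+ libraries and from 18318172 to 45791503 in the tdTom- libraries. The tdTom- library of mouse 4 stands apart at 45791503, with the other 7 between 18318172 and 20668605, and it had the lowest summed absorptive markers (5705 CPM, the others 6963 to 11274), so each member is also given without mouse 4. The sort matched its labels. Atoh1 averaged 132 ± 19.3 CPM (SD, n = 8) in tdTom+ and 5.70 ± 1.67 CPM in tdTom- cells. All 7 goblet markers were higher in tdTom+ cells, summed to 49049 to 102910 CPM against 2224 to 8657 CPM, and all 7 absorptive markers were lower, summed to 326 to 637 CPM against 5705 to 11274 CPM. All 6 enteroendocrine markers were lower in tdTom+ cells too (310 to 785 against 1339 to 3848 CPM). So were 3 of 5 tuft markers, or 4 with the mouse as a block (42.1 to 92.1 against 73.9 to 125 CPM). The call of Gcg (-0.84, adjusted p = 0.00857, edgeR) was lost with DESeq2 (adjusted p = 0.013). It was also lost without mouse 1, 3, 5, 6, 7 or 8 (adjusted p up to 0.0284). With the mouse as a block Gcg was at -0.85 (SE 0.11, adjusted p = 1.6e-06), and it was lower in 8 of 8 mice. The immune list summed to 5.34 to 9.54 CPM in tdTom+ and 9.74 to 17.5 CPM in tdTom- cells. Cd79a and S100a8 had 0 to 3 counts in each library. Ptprc had 31 to 59 counts in tdTom+ and 97 to 183 in tdTom- libraries, and Itgam 79 to 142 and 90 to 304. The endothelial and stromal list summed to 0.868 to 1.43 and 1.90 to 3.36 CPM. Cdh5 had 0 or 1 count, and Pecam1 14 to 20 and 49 to 93 counts. Of the 8 immune markers, 2 were tested. Ptprc was lower, at a log2 fold change of -1.52, and Itgam did not pass (-0.10, adjusted p = 0.594, edgeR). Of the 5 endothelial and stromal markers Pecam1 alone was tested and was lower, at -1.58. The share of these other cells in the differences below was not tested.

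The genes lie on chromosome 7 (GRCm38 coordinates of the deposited files). Ceacam20 occupies 19965412 to 19991113 and Ceacam10 24777204 to 24784649, both on the plus strand. Ceacam1 occupies 25461702 to 25477625 and Ceacam2 25516042 to 25540004, both on the minus strand and 38416 bases apart, with 0 annotated genes wholly between them. Ceacam18 lies far from the rest at 43634739 to 43649287 on the plus strand. The antisense transcript 4732471J01Rik overlaps Ceacam1 and Ceacam2 on the other strand, which the strand-specific counting of stranded libraries kept apart from them.

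At the promoters, the closest pair were the genes that differed between the populations in opposite directions. In the 250 bases before each annotated start (RefSeq, GRCm38.p6), Ceacam1 and Ceacam10 aligned over 231 bases with 219 identical, 94.8%, and with 0 gaps. Ceacam1 and Ceacam2 aligned over 119 bases at 87.4%, and Ceacam2 and Ceacam10 over 101 bases at 84.2%. The windows end at annotated starts, so an aligned length also depends on where those starts lie. The 2 aligned stretches are printed 5′ to 3′ in the direction of transcription, with the 12 bases that differ in capitals. The Ceacam1 stretch is chr7:25477626-25477856 on the minus strand and ends at the gene's start, and the Ceacam10 stretch is chr7:24776954-24777184 on the plus strand and ends 19 bases before its start.
Ceacam1: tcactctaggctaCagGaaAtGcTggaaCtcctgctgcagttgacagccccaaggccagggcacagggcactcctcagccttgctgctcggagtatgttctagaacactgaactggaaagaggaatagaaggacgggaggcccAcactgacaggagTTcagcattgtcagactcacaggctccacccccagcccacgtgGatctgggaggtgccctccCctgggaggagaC
Ceacam10: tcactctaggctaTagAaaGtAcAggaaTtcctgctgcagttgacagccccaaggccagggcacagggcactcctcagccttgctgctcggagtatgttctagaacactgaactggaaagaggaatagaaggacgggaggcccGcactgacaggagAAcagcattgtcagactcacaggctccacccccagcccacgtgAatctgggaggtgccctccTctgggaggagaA
Both stretches hold 1 CACGTG, an E-box that reads the same on both strands, which 6.0% of 32817 RefSeq promoters of this length also hold. The other E-box searched, CAGCTG, occurs in neither but once in the Ceacam20 promoter, as in 13.0% of promoters. Such matches describe the letters only.

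Ceacam1 was the most abundant of the 5 genes in either population and was lower in tdTom+ cells. Its level ran from 1503 to 2469 CPM with a median of 1849 in the 8 tdTom+ libraries, and from 2223 to 3479 CPM with a median of 2708 in the 8 tdTom- libraries. The ranges overlapped, with the tdTom- libraries of mouse 4 (2223 CPM) and mouse 5 (2445 CPM) below the tdTom+ library of mouse 7 (2469 CPM), yet the tdTom+ library was the lower of the pair in 8 of 8 mice. The means were 1905 ± 301 and 2756 ± 391 CPM (SD, n = 8), and the log2 fold change was -0.53 (SE 0.11, adjusted p = 0.000188, edgeR quasi-likelihood test). Of the 15841 genes tested, 2802 had a log2 fold change as low as that of Ceacam1 or lower, Ceacam1 included. A lower level in a sorted population cannot be told apart from fewer cells that hold the transcript.

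The size of the Ceacam1 difference ranged widely among mice. The within-mouse log2 ratio ran from -0.04 in mouse 4 to -1.21 in mouse 2. It was -0.79 (SE 0.16) when the fit held mice 1 to 3 only and -0.46 (SE 0.12) with mice 5 to 8 only, the mouse numbers falling into these runs with mouse 4 between them. Without mouse 4 the value was -0.58 (SE 0.11, adjusted p = 0.000127), and without mouse 2 it was -0.43 (SE 0.10, adjusted p = 0.000834).

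Ceacam2, the neighbour and closest paralog of Ceacam1, followed the same course at a lower level. It ran from 534 to 861 CPM with a median of 630 in tdTom+ libraries and from 822 to 1293 CPM with a median of 988 in tdTom- libraries. The ranges overlapped through mouse 4 (822 CPM in tdTom- cells) and mouse 7 (861 CPM in tdTom+ cells), with the tdTom+ library lower in 8 of 8 mice. The log2 fold change was -0.60 (SE 0.10, adjusted p = 2.49e-05, edgeR). It was -0.65 (SE 0.10) without mouse 4, -0.88 (SE 0.15) with mice 1 to 3 only and -0.51 (SE 0.11) with mice 5 to 8 only.

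**Figure D1:**
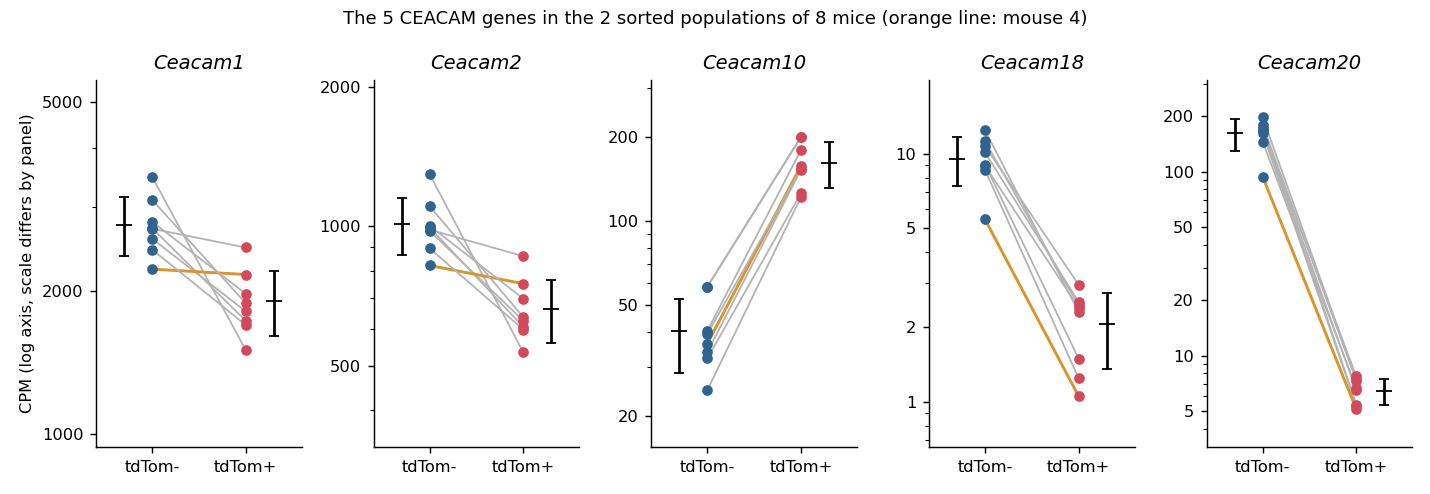
CPM of the 5 genes (log axis, its scale differing by panel) in the tdTom- and tdTom+ libraries of 8 mice, each line joining the 2 libraries of a mouse and the orange line marking mouse 4; black bars are mean ± SD of 8 libraries. Lines fall in 8 of 8 mice for Ceacam1, Ceacam2, Ceacam18 and Ceacam20 and climb in 8 of 8 for Ceacam10, and the 2 groups of points overlap only for Ceacam1 and Ceacam2.

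Ceacam1 and Ceacam2 share long stretches of identical transcript, so their counts are not fully independent. Of the 3834 distinct 50-base words (the read length) in annotated Ceacam2 transcripts, 1791, or 46.71%, also occur in Ceacam1. In the longest Ceacam1 transcript, Ceacam1-201, 48.16% of the 50-base words occur in Ceacam2, with 28.9% of the words that start in its coding part and 61.9% of those in its 3′ untranslated part. The longest run of Ceacam2-203 made only of shared words spans 518 bases, from base 2599 to base 3116 near its 3′ end. The other members are nearly free of this, with 3.0% of the words of Ceacam10 and 1.54% of those of Ceacam20 in any other gene, and 0 of the 1921 words of Ceacam18.

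The ratio of the pair barely moved. Ceacam2 received 33.7 to 35.5 counts per 100 Ceacam1 counts in tdTom+ libraries (median 35.0) and 35.4 to 37.9 in tdTom- libraries (median 36.6). Suppose Ceacam1-201 alone had been present, with reads spread evenly along it and its shared reads divided evenly between the genes. Ceacam2 would then have received 31.71 counts per 100 of Ceacam1, the highest value among the Ceacam1 transcripts compared. The other Ceacam1 transcripts gave 9.23 to 24.55 on the same supposition, and the observed ratios were 33.7 to 37.9. Reads gathered in the 3′ untranslated part of Ceacam1-201, where 61.9% of words are shared, would give more than 31.71. These values therefore set no upper limit on the counts that Ceacam1 transcripts could give to Ceacam2. The mix of transcripts, the spread of reads along them and the division of shared reads were not tested. How many Ceacam2 counts arose from Ceacam2 transcripts therefore cannot be told from counts per gene. The within-mouse log2 ratio of Ceacam1 exceeded that of Ceacam2 by 0.07 ± 0.033 (SD, n = 8 mice), with the same sign in 8 of 8 mice (exact two-sided sign-flip permutation test over 256 sign patterns, p = 0.0078, the smallest these can give). With the counts of both genes summed, the log2 fold change was -0.55 (SE 0.11, adjusted p = 0.000139, edgeR).

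**Figure D2:**
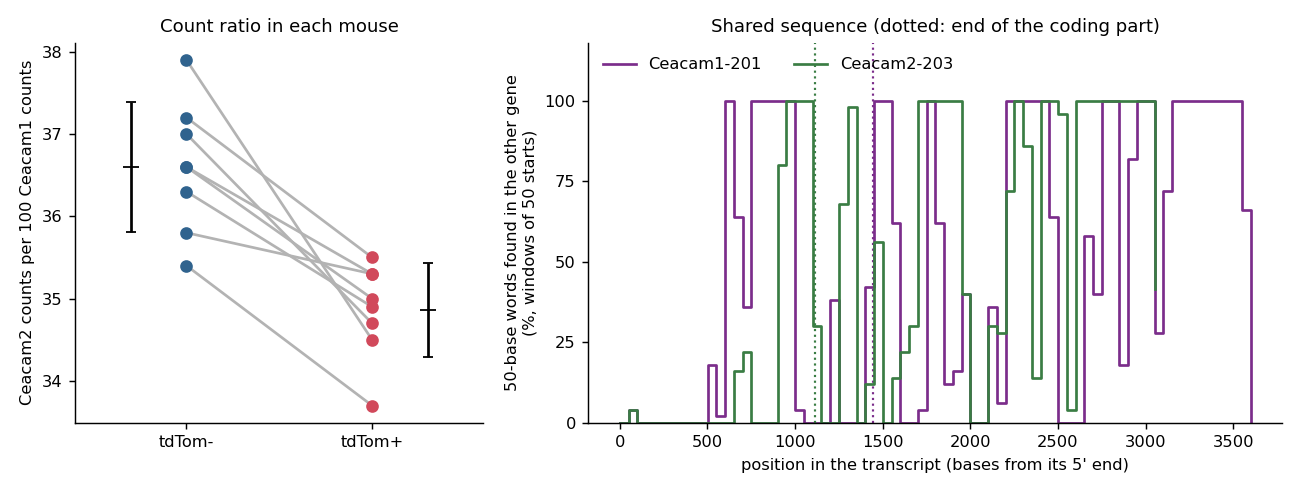
Left, Ceacam2 counts per 100 Ceacam1 counts in the tdTom- and tdTom+ libraries of 8 mice (lines join a mouse, black bars are mean ± SD, and the axis does not start at 0); right, the percentage of 50-base words of Ceacam1-201 and Ceacam2-203 that occur in the other gene, along each transcript in windows of 50 start positions. The ratio is lower in tdTom+ cells in 8 of 8 mice within a span of 33.7 to 37.9, and sharing is densest past the dotted lines that end the coding parts.

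Ceacam10, which encodes a secreted family member with no membrane anchor, was the one member of the 5 higher in tdTom+ cells. It ran from 122 to 201 CPM with a median of 156 in tdTom+ libraries and from 24.8 to 58.3 CPM with a median of 38.0 in tdTom- libraries. The groups were wholly separate, as they were for 30.5% of all genes tested in either direction, and 3 of the 5 members (Ceacam10, Ceacam18 and Ceacam20) did not overlap. The log2 fold change was 2.0 (SE 0.16, adjusted p = 5.57e-10, edgeR), a 4.0-fold difference that 448 of 15841 genes, Ceacam10 included, reached or exceeded in this direction. Within mice the log2 ratio stayed between 1.78 and 2.30, and the fitted value was 2.0 (SE 0.17) without mouse 4, 2.01 (SE 0.18) with mice 1 to 3 only and 1.96 (SE 0.22) with mice 5 to 8 only.

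The tdTom- cells kept more of Ceacam10 than of the goblet markers. Their mean Ceacam10 level was 25.01% of that in tdTom+ cells, while the 7 goblet markers stood at 4.09% (Muc2, the main gel-forming mucin) to 8.47% (Zg16) with a median of 7.09%. Ceacam12, the other family member with a higher tdTom+ level and a passed filter, stood at 5.99%, inside the range of the goblet markers. Pairwise differences in these shares were not tested.

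Ceacam20 showed the largest difference among the members. It ran from 5.11 to 7.71 CPM with a median of 6.57 in tdTom+ libraries and from 93.5 to 197 CPM with a median of 169 in tdTom- libraries. The groups did not overlap, and mouse 4, at 93.5 CPM, was the lowest of the tdTom- libraries by a wide gap, the next being mouse 6 at 145 CPM. The log2 fold change was -4.65 (SE 0.14, adjusted p = 5.03e-16, edgeR), and it was -4.67 (SE 0.10) without mouse 4. Only 30 of 15841 genes tested, Ceacam20 included, had a log2 fold change that low. With mice 1 to 3 only it was -4.77 (SE 0.15) and with mice 5 to 8 only -4.63 (SE 0.11).

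The tdTom+ mean of Ceacam20 was 4.0% of the tdTom- mean, within the span of the 7 absorptive markers, from 2.77% for the water channel gene Aqp8 to 10.15% for the keratin gene Krt20 (median 4.29%). Ceacam18 was at 21.49%, above that span. The tdTom+ means of the 10 brush border genes were 25.51% (Cdhr2, a protocadherin of microvillus tips) to 71.19% (Myo1a, a brush border myosin) of the tdTom- means. Ceacam1 and Ceacam2, at 69.1% and 65.8%, were at the upper end of that span, between Vil1 (65.6%) and Myo1a. Such shares were not particular to brush border genes, since the adhesion genes F11r (69.03%) and Nectin2 (65.9%) held them too.

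**Figure D3:**
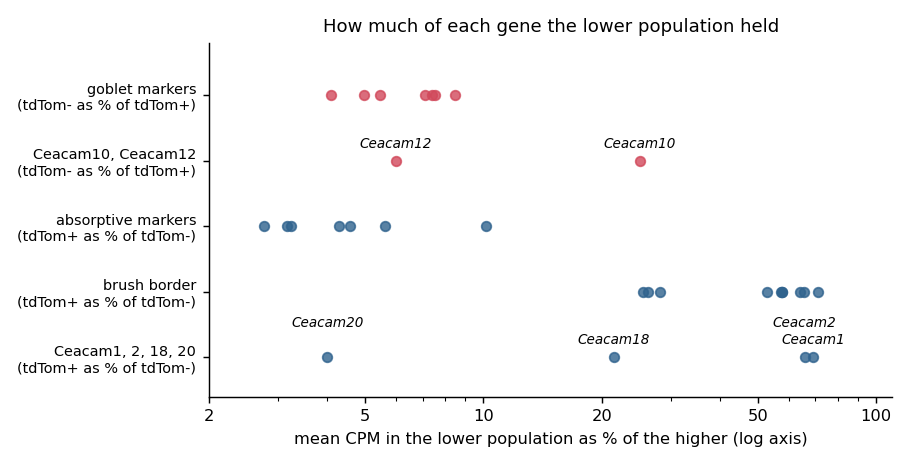
Mean CPM of a gene in the population where it was lower, as a percentage of its mean in the other population (log axis), each point 1 gene: goblet markers, Ceacam10 and Ceacam12 as tdTom- over tdTom+, and absorptive markers, brush border genes and the other 4 members as tdTom+ over tdTom-. Ceacam20 (4.0%) falls among the absorptive markers, and Ceacam10 (25.01%) lies to the right of every goblet marker. Ceacam1 and Ceacam2 (69.1% and 65.8%) lie at the upper end of the brush border genes.

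Ceacam18 was the least abundant member and was also lower in tdTom+ cells. It held 22 to 58 counts in tdTom+ libraries and 169 to 279 in tdTom- libraries, or 1.05 to 2.96 CPM (median 2.34) and 5.42 to 12.4 CPM (median 9.55). The groups did not overlap, and mouse 4 gave the lowest value in both. The log2 fold change was -2.21 (SE 0.20, adjusted p = 4.05e-09, edgeR), and it was -2.18 (SE 0.16) without mouse 4, -2.26 (SE 0.25) with mice 1 to 3 only and -2.16 (SE 0.19) with mice 5 to 8 only. In all, 463 genes, Ceacam18 included, were that low or lower.

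Compared per length, as RPKM, the CPM divided by the exonic length in kilobases, the order of the levels differed between the populations. In tdTom- cells the order was Ceacam1 (595 to 931 RPKM), Ceacam2 (209 to 329), Ceacam20 (32.3 to 68.1), Ceacam10 (23.8 to 55.9) and Ceacam18 (2.81 to 6.41). Of these neighbours only Ceacam20 and Ceacam10 overlapped, Ceacam20 being the higher in 7 of 8 libraries and Ceacam10 in that of mouse 4. In tdTom+ cells the order was Ceacam1 (402 to 661 RPKM), Ceacam2 (136 to 219), Ceacam10 (117 to 193), Ceacam20 (1.76 to 2.66) and Ceacam18 (0.544 to 1.53), and there only Ceacam2 and Ceacam10 overlapped, Ceacam2 being the higher in 5 of 8 libraries. Since Ceacam2 may hold reads of Ceacam1, its place against Ceacam10 is uncertain.

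**Figure D4:**
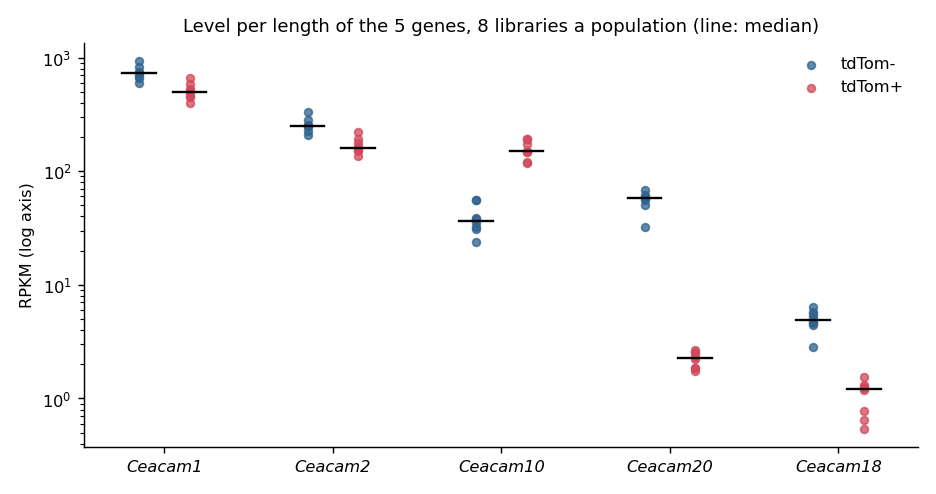
RPKM (log axis) of the 5 genes in the 8 tdTom- and 8 tdTom+ libraries, with each point a library and black lines at the medians. Ceacam10 rises to the level of Ceacam2 in tdTom+ cells (medians 149 and 160), and Ceacam20 drops from a median of 58.3 to 2.27.

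Of the CPM of all 15 Ceacam genes, Ceacam1 took 69.1% ± 1.15 in tdTom+ and 69.3% ± 0.709 in tdTom- cells (SD, n = 8), and Ceacam2 took 24.1% ± 0.347 and 25.4% ± 0.415. The Ceacam2 shares did not overlap (23.6 to 24.5% and 24.9 to 25.9%), though they may hold reads of Ceacam1. Larger differences lay in the remainder. Ceacam10 made up 5.92% ± 1.11 of the family in tdTom+ and 1.04% ± 0.334 in tdTom- cells, and Ceacam20 0.238% ± 0.0555 and 4.04% ± 0.608. The family as a whole summed to 2755 ± 417 CPM in the tdTom+ libraries against 3977 ± 552 CPM in the tdTom- libraries.

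Among the other 10 Ceacam genes of the annotation, Ceacam12 was the only one to pass the filter on low counts. It ran from 7.91 to 24.4 CPM in tdTom+ and from 0.408 to 1.39 CPM in tdTom- libraries without overlap, with a log2 fold change of 4.11 (SE 0.29, adjusted p = 8.08e-11, edgeR), or 3.96 without mouse 4. Ceacam9 and Ceacam13 were near the detection limit, at 4 to 16 and 4 to 18 counts in tdTom+ libraries against 0 to 6 counts each in tdTom- libraries. In the fit with no filter their log2 fold changes were 1.77 (SE 0.43, adjusted p = 0.00153) and 2.74 (SE 0.58, adjusted p = 0.000419). The other 7 had at most 2 counts in every library, so differences in them were not detectable at this depth. There 3 counts correspond to 0.0655 to 0.182 CPM, taken on total counts without the TMM adjustment.

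The pregnancy-specific glycoproteins, secreted relatives of the CEACAMs best known from the placenta, were counted for 13 genes, of which 3 were tested. Psg17 passed at a log2 fold change of 1.01 (SE 0.31, adjusted p = 0.00755, edgeR), its mean level being 1.25 ± 0.629 CPM in the tdTom+ libraries and 0.613 ± 0.232 CPM in the others. That call was lost without mouse 4 (0.98, adjusted p = 0.0198), 5, 6 or 7, with limma-voom (0.88, adjusted p = 0.0223), with mice 1 to 3 only (0.38, adjusted p = 0.513) and with mice 5 to 8 only (1.19, adjusted p = 0.0165). Psg16 (log2 fold change -0.03, SE 0.08) and Psg23 (-0.06, SE 0.15) did not pass, at 24 ± 2.30 against 24.5 ± 3.03 CPM and 2.19 ± 0.404 against 2.29 ± 0.486 CPM.

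Of 20 genes of CEACAM signalling, 19 were tested, 11 were lower in tdTom+ cells, 2 were higher and 6 did not pass, beside 25.5% of all genes in each direction, with a median log2 fold change of -0.29 beside 0.004 for all genes tested. The largest difference was in Ptprh, which encodes the phosphatase that acts on CEACAM20, at 11.1 to 17.0 CPM in tdTom+ and 101 to 189 CPM in tdTom- libraries and a log2 fold change of -3.46 (SE 0.12, adjusted p = 1.53e-15). The Src family kinases diverged, since Src was lower (-0.31, SE 0.06) and Fyn was higher (1.53, SE 0.16), while Lyn (0.23, adjusted p = 0.0136) missed the threshold of 0.01 and met it once the mouse was a term of the fit (adjusted p = 0.00384). The kinase gene Syk was lower (-0.39, SE 0.08, adjusted p = 0.000419), as was Ptpn6 (-0.49, SE 0.07, adjusted p = 3.23e-06), whereas its relative Ptpn11 gave 0.00 (SE 0.06, adjusted p = 0.961). Egfr, the gene of a growth factor receptor, was the other gene higher in tdTom+ cells (0.49, SE 0.08). With mice 1 to 3 only the calls of Egfr (0.40, adjusted p = 0.0487) and Syk (-0.38, adjusted p = 0.0349) were lost.

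Among 18 other adhesion genes of epithelia, all tested, 10 were lower, 4 higher and 4 did not pass, beside 25.5% of all genes in each direction, with a median of -0.41 beside 0.004 for all genes. The nectins, which pair across cell junctions, split in direction: Nectin3 was lower (-1.21, SE 0.05), Nectin2 was lower (-0.60, SE 0.07), and Nectin1 (1.83, SE 0.10) and Nectin4 (1.18, SE 0.10) were higher in tdTom+ cells. The desmosomal cadherin gene Dsg2 was lower (-0.93, SE 0.07). Epcam, the marker of the sort, was lower by a small amount (-0.20, SE 0.06, adjusted p = 0.00782), a call lost without each mouse but mouse 1. All 10 brush border genes were lower, with a median of -0.80 and summed levels of 2079 to 2333 CPM in tdTom+ and 3660 to 5392 CPM in tdTom- libraries, mouse 4 again giving the lowest tdTom- sum.

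**Figure D5:**
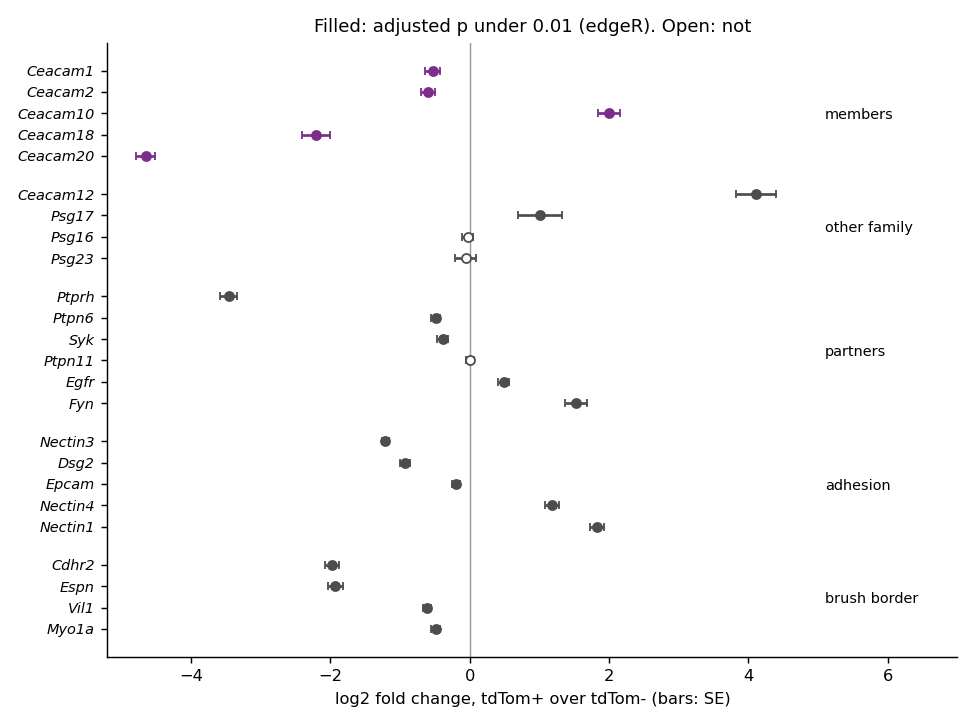
Log2 fold change of tdTom+ over tdTom- cells with its SE (edgeR, 8 mice) for the 5 members, the other tested family genes and selected genes of the signalling, adhesion and brush border lists, with filled points for an adjusted p under 0.01. Ceacam20 (-4.65) and Ceacam12 (4.11) mark the ends, and Ptprh (-3.46) lies nearest to Ceacam20 among the partners.

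Genes whose log2 CPM ran most like a member's were found among 14644 others with a mean of at least 1 CPM, over 16 libraries, of which pairs share a mouse. For Ceacam1 the closest was Ceacam2 (Pearson r = 0.995), followed by the anchor protein gene Ank3 (0.944) and the kinase gene Jak2 (0.940). The counts of Ceacam1 and Ceacam2 are not fully independent, so the r of this pair cannot be read as shared expression. For Ceacam20 they were the protease gene Prss30 (0.998), Aqp8 (0.997) and Stom (0.997), and for Ceacam18 Akr1b7 (0.987), Cyp2d34 (0.984) and the peptide transporter gene Slc15a1 (0.982). For Ceacam10 they were Anxa13 (0.978), Rgs14 (0.978) and Gnat2 (0.976). These r values include the difference between the populations, which ran in the same direction in each named gene as in its member. Once the population means were taken away, none of the genes named here for Ceacam20 or Ceacam10 stayed among its closest 3.

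With each population's mean subtracted, the deviations of Ceacam1 and Ceacam2 ran together (r = 0.992), under the same limit of shared reads. Stx3 came next (0.878 with Ceacam1). Those of Ceacam18 and Ceacam20 gave 0.766, Ceacam20 lay closest to 4930539E08Rik (0.923), and Ceacam18 to Akr1b7 (0.903) again. Ceacam10 gave 0.006 with Ceacam1, 0.036 with Ceacam2 and 0.034 with Ceacam20, and its closest gene was Ang5 (0.816), itself higher in tdTom+ cells at 30.4 ± 25.6 against 2.14 ± 1.95 CPM. Mouse 4 was the lowest tdTom- library for both Ceacam18 and Ceacam20.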

How the data were processed

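The authors aligned single-end 50-base reads of stranded mRNA libraries to GRCm38.p3 with TopHat2 2.1.1 and deposited raw counts per gene for 45513 genes in each of 16 libraries, summed over exons by featureCounts on the reverse strand from primary alignments (Subread 1.5.2 per the labels, 1.5.0-p1 per the file headers). A read that fits 2 paralogs is therefore counted once, at its primary alignment. Symbols for 44585 genes and transcripts came from GENCODE M21.

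Populations and mice came from the labels. The 2 libraries that carry 1 mouse number come from 1 animal, and their deviations from the population means correlated in every mouse (0.223 to 0.408). The lowest chi-square per degree of freedom between 2 libraries of a population was 11.739, so none were duplicates.

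Counts were fitted over all 15841 genes that passed filterByExpr with edgeR 4.0.16 in R 4.3.3 (TMM, glmQLFit, glmQLFTest, no mouse term), at a Benjamini-Hochberg adjusted p under 0.01, with SE as the log2 fold change over the root of F. CPM and RPKM used TMM library sizes, and log2 CPM a prior count of 2. Alternatives were the mouse as a block, DESeq2 1.42.0, limma-voom (limma 3.58.1), RLE and upper-quartile factors, no filter, at least 10 counts in every library, each mouse left out, subsets of mice, a threshold of 0.05, both paralogs summed, and prior counts of 0.5 and 8. The fit was tested on simulated data. Shared words and promoters were compared with biopython 1.88.

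Named are the members, every other Ceacam or Psg gene with at least 10 counts in a library, the 2 largest changes in each direction of each list, Ptpn6, Ptpn11, Ptprh, Syk, Epcam, Muc2 and Aqp8, and the 3 genes most like each member by either correlation. Atoh1, Src, Lyn and Nectin2 were added after their values were seen, and some genes that the rule names are not reported here. The members and lists were chosen with earlier results of these data known. Genes under about 3 counts are not resolved at this depth.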

Additional observations from a re-analysis of the deposited data

Results flagged for a closer look

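In 140 groups of 8 libraries (70 genes or measures in each population), 16 had a highest or lowest library that stood farther from the next than Dixon's critical share of the range for 8 values, where chance flags about 1 in 20 independent groups. These groups are not independent, since Stom, 4930539E08Rik, Myo15b and Jak2 were picked for running like a member and so repeat its low value in mouse 4. Of these, 14 concern the tdTom- library of mouse 4. It is the one with 45791503 total counts. In it Ceacam18 had a log2 CPM of 2.46 (others 3.12 to 3.64) and Ceacam20 6.55 (others 7.18 to 7.63). Among absorptive markers Aqp8 was at 8.33, Car4 at 9.56 and Krt20 at 9.05, each the lowest. Also lowest there were Neurod1 (1.91), Trpm5 (4.77), Avil (3.78), Jak2 (5.85), Stom (5.83), 4930539E08Rik (6.11) and Myo15b (9.53), while Nectin3 was the highest at 6.94. In the tdTom+ library of mouse 4, Stom was the lowest at 3.00. Itgam was the highest in the tdTom- library of mouse 2, at 3.13. Whether the depth of the library plays a part was not tested.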

How the results depend on the processing

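All 5 members kept their direction and an adjusted p under 0.01 in every alternative run. With the mouse as a block the values were -0.54 (SE 0.10) for Ceacam1, -0.61 (SE 0.10) for Ceacam2 and 2.03 (SE 0.06) for Ceacam10. They were -2.24 (SE 0.12) for Ceacam18 and -4.63 (SE 0.08) for Ceacam20. The replicate block added Avil (-0.43) and March7 (-0.16) to the lower genes among those named, Lyn to the higher ones, and Cd47 to the lower genes of the adhesion list. With mice 1 to 3 only, 2546 genes were higher and 2559 lower, against 4032 and 4042 with all mice, fewer mice being tested. With mice 5 to 8 only, Ceacam1 exceeded Ceacam2 by 0.051, where the smallest exact p that 4 mice allow is 0.125. Log2 fold changes that changed sign belonged to genes that did not pass. With mice 5 to 8 only Psg16 was at 0.09, Psg23 at 0.34 and Pou2f3 at -0.32, and leaving out a mouse gave -0.05 to 0.01, -0.16 to 0.04 and -0.07 to 0.17. Ptpn11 was at 0.00 with the block, limma-voom and 10 counts in every library, at -0.01 with upper-quartile factors, at -0.07 with mice 1 to 3 only and at -0.02 to 0.03 with a mouse left out. Pla2g4c was at 0.09 with the block and at -0.11 to 0.09 with a mouse left out. The causes were not tested. Shared sequence limits the separation of Ceacam1 from Ceacam2, and low counts limit Ceacam9, Ceacam13 and the Psg genes. The main fit has no mouse term. Its p-values measure the spread among the 8 libraries of each population, not the spread of within-mouse differences.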
